A study of Mus musculus with 8 samples.

Results

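The actin genes of the heart were read out from RNA-seq libraries of 4 WT and 4 Mettl3 KO hearts. They were taken as the rows of the deposited gene table with the symbols Acta1, Actc1, Acta2, Actb and Actg1, which are 5 of 23045 genes, and all 5 had a mean normalized read count of at least 1 and were tested. WT mice were Mettl3lox/lox and Mettl3 KO mice were Mettl3lox/lox:alphaMHC-MerCreMerpos, so both groups carry loxP sites at Mettl3, the gene of the methyltransferase that places N6-methyladenosine on RNA. Per the study's methods, mice of both genotypes aged 10 to 16 weeks received 100 µg tamoxifen per g body weight on 7 days. The alphaMHC promoter drives the tamoxifen-inducible Cre in cardiomyocytes, and the WT mice do not carry it, so presence of the Cre and loss of Mettl3 cannot be told apart. The time between tamoxifen and sampling is not given in the sources used here. The labels number the libraries without naming animals, and the p values measure the spread between these libraries.

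Actin is the protein of the thin filament of muscle and of the cytoskeleton. Cardiac α-actin (Actc1) and skeletal α-actin (Acta1) build the sarcomere, and Acta1 is known as a gene of the fetal and the overloaded heart. Smooth muscle α-actin (Acta2) is made by vascular smooth muscle, pericytes and myofibroblasts, whereas β-actin (Actb) and γ-actin (Actg1) form the cytoskeleton of nearly every cell. Transcription of actin genes is controlled by serum response factor (SRF), which binds a DNA element named the CArG box and whose cofactors sense the pool of free actin.

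The coding sequences of the 5 genes are near copies of each other, which matters for a count made from 72-base reads. The first 30 bases of each are shown because the isoforms are known to differ most at the start of the protein. Capitals mark the bases that differ from Actc1, and the sequences are those of GENCODE transcripts.
Actc1: atgtgtgacgacgaggagaccaccgctttg
Acta1: atgtgCgacgaAgaCgagaccaccgctCtT
Acta2: atgtgtgaAgaGgaAgaCaGcacAgcCCtg
Actb: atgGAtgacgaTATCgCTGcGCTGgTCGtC
Actg1: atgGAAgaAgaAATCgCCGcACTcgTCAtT
In this stretch Acta1 differed from Actc1 at 5 bases, Acta2 at 8, Actb at 17 and Actg1 at 18. Over the whole coding sequence, identity ran from 81.5% between Acta2 and Actg1 to 88.6% between Actb and Actg1, and Acta1 and Actc1 shared 86.3%. The longest identical run, 77 bases, joined Acta1 and Actb.

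All 5 genes lie on the minus strand, each on a chromosome of its own (mm39, from the deposited table). Actc1 (ENSMUSG00000068614) spans chr2:113877763-113884029 and Acta1 (ENSMUSG00000031972) chr8:124618508-124621490. Acta2 (ENSMUSG00000035783) spans chr19:34218490-34232990, Actb (ENSMUSG00000029580) chr5:142888870-142892509 and Actg1 (ENSMUSG00000062825) chr11:120236516-120239368. The table lists 1 gene that overlaps any of them, the lncRNA A530058N18Rik on the opposite strand over Actc1, with values of 24 to 38.

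Promoter sequences of 300 bases (RefSeq, GRCm38.p6, 250 bases before to 50 after the gene start) were found for Acta1, Actc1, Acta2 and Actg1. They were searched on both strands for the CArG box in its strict form, CC, a run of only A and T, and GG. Boxes that depart from this form at any base were not searched for. Each box is shown in capitals within 30 bases, on the strand of the gene.
Acta1 (GRCm38.p6 chr8:123894829-123894858, minus strand): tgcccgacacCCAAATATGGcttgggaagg
Actc1 (GRCm38.p6 chr2:114052903-114052932, minus strand): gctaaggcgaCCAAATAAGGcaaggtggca
Actg1 (GRCm38.p6 chr11:120348566-120348595, minus strand): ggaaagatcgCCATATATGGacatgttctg
The box began 73 bases before the gene start in Acta1, 47 in Actc1 and 90 in Actg1. The window of Acta2 held 0 boxes of the strict form, which does not show that it lacks a CArG element. Among all 32851 promoters of the same length, 535 (1.63%) held at least 1. A match in letters is a description and not a site of binding.

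The normalized read counts of a library summed to 2839589 to 2916986. The reads behind them, estimated from gaps among the low values, numbered 2631904 to 3061209. Mettl3 was lower in each Mettl3 KO library (68 to 78) than in each WT library (105 to 133), at 62.4% of the WT mean (limma adjusted p = 0.000184), the direction the labels imply. The count covers all exons and all cells of the heart. Of 20313 genes tested, 958 rose and 649 fell in Mettl3 KO hearts at a limma adjusted p under 0.05, or 7.91% in all, and in 11.5% of them WT and Mettl3 KO values lay fully apart. Of 6 cardiomyocyte markers, with sums of 21832 to 22971 in a WT library and 20340 to 22823 in a Mettl3 KO library, 0 rose and 1 fell. This was Ryr2, the cardiac calcium release channel gene (log2 fold change -0.23, limma adjusted p = 0.000137), and the median of the list was 0.06. The values of Myh6 and Pln in this list followed the scaling factor of each library (Pearson r of 0.986 and 0.968). How far this limits the list as a measure of cardiomyocyte RNA was not tested.

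At that threshold 0 of the 5 actin genes were called, where 7.91% of all genes were. Acta1 alone had an unadjusted p under 0.05, which 20.6% of all genes had, and 0 of 5 had WT and Mettl3 KO values that lay fully apart, where 11.5% of all genes did. All 5 estimates were above 0, from 0.03 for Actb to 0.28 for Acta1 on the log2 scale. The unadjusted 95% intervals reached as a ratio from 0.959 to 1.09 for Actb, from 0.997 to 1.14 for Actc1 and from 1.01 to 1.45 for Acta1. For Acta2 the interval was 0.905 to 1.35 and for Actg1 0.987 to 1.34. Those of Actc1, Actg1 and Actb rest on values that followed the scaling factor of each library (Pearson r of 0.967, 0.891 and 0.856). How far this limits them as bounds on a change of these genes was not tested. The reads behind these values are described with the factors.

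**Figure D1:**
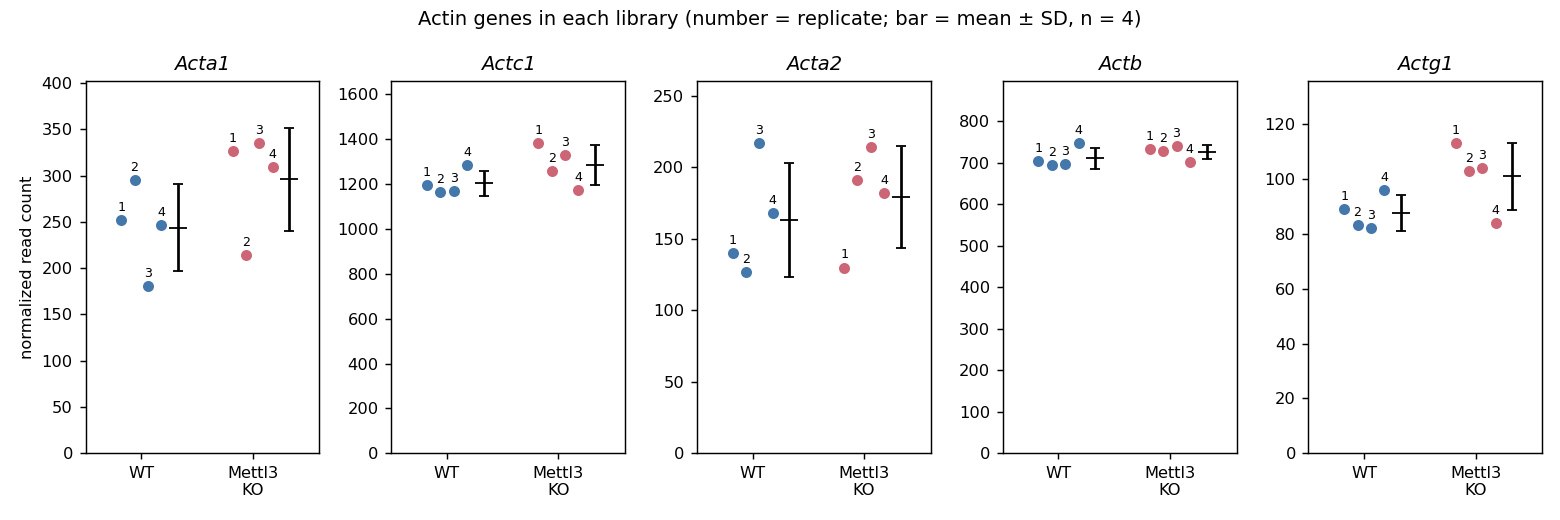
Normalized read counts of the 5 actin genes in each library, 1 panel per gene with its own vertical axis from 0. Points are libraries numbered by replicate, and the bars are the mean ± SD of 4. The genotypes overlap in every panel, and Acta1 and Acta2 spread most.

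Actc1, the main sarcomeric actin of the adult heart, is given first. Its values were 1195, 1163, 1166 and 1283 across the WT libraries and 1381, 1258, 1327 and 1174 across those of Mettl3 KO hearts. WT replicate 4 lay above Mettl3 KO replicates 2 and 4, so the groups overlapped. The mean was 1202 ± 56.1 in WT and 1285 ± 89.5 in Mettl3 KO hearts (SD, n = 4), and the change on the log2 scale was 0.10 with an SE of 0.05 (adjusted p = 0.269 by limma). Without Mettl3 KO replicate 1 it was 0.06, and with each library left out in turn it reached up to 0.14.

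Acta1, the skeletal isoform of the sarcomere, varied strongly between hearts of one genotype. Its values were 252, 295, 181 and 247 across the WT libraries and 326, 214, 335 and 309 across those of Mettl3 KO hearts. In 3 of 4 Mettl3 KO libraries it was above every WT library, and Mettl3 KO replicate 2 was below 3 WT libraries. The mean was 244 ± 47.1 in WT and 296 ± 55.7 in Mettl3 KO hearts (SD, n = 4), and the change on the log2 scale was 0.28 with an SE of 0.12 (unadjusted p = 0.0359, adjusted p = 0.199 by limma). This was the widest difference of the 5 in the main fit. Acta2 was wider without WT replicate 3 or Mettl3 KO replicate 1. Actg1 was wider without Mettl3 KO replicate 4 or with an index of atrial genes as a covariate. For Acta1, 1 library decided the call. Without Mettl3 KO replicate 2 the log2 fold change was 0.43 with a limma adjusted p of 0.0354, in a fit that called 5.58% of genes. It fell to 0.14 when WT replicate 3 was left out (adjusted p = 0.545 by limma), and with an index of atrial genes as a covariate 0.15 (0.771). Over its alternatives the adjusted p ran from 0.0354 to 0.771. Markers of skeletal muscle fibres, whose genes include Myh1, Myh4 and Tnnt3, summed to 30 to 44 in WT and 28 to 39 in Mettl3 KO libraries over all 7 genes. Of these 0 rose, and 1 passed as lower, Tnni2, at 6, 5, 7 and 2 across the WT libraries and 1, 0, 2 and 1 across those of Mettl3 KO hearts (limma adjusted p = 0.0381). At these few reads it passed in 9 of 19 alternatives, and the part of the list in the value of Acta1 was not tested.

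Acta2, the actin of smooth muscle cells, had values of 140, 127, 217 and 168 across the WT libraries and 130, 191, 214 and 182 across those of Mettl3 KO hearts. The highest and the lowest value of all 8 were both in WT libraries. The mean was 163 ± 39.9 in WT and 179 ± 35.5 in Mettl3 KO hearts (SD, n = 4), and the change on the log2 scale was 0.14 with an SE of 0.14 (adjusted p = 0.638 by limma). The estimate rests on single libraries, at 0.03, 0.08 and 0.05 without WT replicate 2, WT replicate 1 and Mettl3 KO replicate 3, and at 0.29 without WT replicate 3 or without Mettl3 KO replicate 1, with an adjusted p of 0.180 to 0.958 over all alternatives. In bulk tissue, fewer cells of a type and less RNA per cell cannot be told apart. Of 9 markers of smooth muscle cells and pericytes, 0 passed the test, with a median log2 fold change of -0.08 beside -0.01 over all genes, and their sum was 3236 to 3386 in WT and 2960 to 3271 in Mettl3 KO libraries. Divided by the sum of Tagln, Myh11, Cnn1 and Myl9, contractile genes of the same cells, Acta2 gave 0.423 ± 0.0771 in WT and 0.399 ± 0.0289 in Mettl3 KO hearts (SD, n = 4, exact permutation p = 0.686). These 4 genes had log2 fold changes of 0.17 to 0.68, whereas the other 5 of the list, Smtn, Mylk, Pdgfrb, Rgs5 and Kcnj8, had -0.23 to -0.08. Markers of activated fibroblasts, another source of Acta2, rose in 5 of 6 cases, for example Postn from 378 to 752 and Lox from 31.8 to 72.8 on average. Their sum was 1324 to 1593 in a WT library and 1897 to 2349 in a Mettl3 KO library, and the part of these cells in the value of Acta2 was not tested.

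Of the cytoplasmic isoforms, Actb, often used as a reference gene, held 703, 694, 696 and 747 across the WT libraries and 732, 727, 741 and 702 across those of Mettl3 KO hearts. The 8 values lay close together and the groups overlapped. The mean was 710 ± 25.0 in WT and 726 ± 16.7 in Mettl3 KO hearts (SD, n = 4), and the change on the log2 scale was 0.03 with an SE of 0.04 (adjusted p = 0.772 by limma). With each library left out in turn this change was 0.02 to 0.06. Actg1 had 89, 83, 82 and 96 across the WT libraries and 113, 103, 104 and 84 across those of Mettl3 KO hearts. In 3 of 4 Mettl3 KO libraries it was above every WT library, and Mettl3 KO replicate 4 was among the lowest. The mean went from 87.5 ± 6.46 to 101 ± 12.2 (SD, n = 4), and the change on the log2 scale was 0.20 with an SE of 0.11 (adjusted p = 0.298 by limma).

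The spread within a genotype was set beside that of genes of like level, those with a mean within 1.5-fold of the actin gene. The mean coefficient of variation of Acta1 was 19.1%, above that of 99.4% of 2621 such genes, whose median was 5.98%. For Acta2 it was 22.1%, above that of 99.4% of 3129 genes with a median of 7.35%. Actc1 was at 5.81%, above that of 81.9% of 437 genes, on values that followed the scaling factor of each library (Pearson r of 0.967). Over the 8 libraries the estimated reads of Actc1 had a coefficient of variation of 1.66%, where counting error alone gives 2.83%. Actb was at 2.91%, above 13.7% of 1068 genes, and Actg1 at 9.72% was near the median of its 3106 neighbours. Between Acta1 and Acta2 the Pearson r was -0.604 within genotype and -0.396 over the 8 libraries.

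To compare isoforms without any scaling between libraries, each gene was expressed as a share of the actin sum. That sum, which unlike a share keeps the scaling of each library, was 2406 ± 91.3 in WT and 2587 ± 135 in Mettl3 KO hearts (SD, n = 4, exact permutation p = 0.0857, adjusted p = 0.314). All tests of this kind are two-sided, run over 70 ways to part the libraries so that no p can be under 0.0286, and are adjusted over the 11 shares, ratios and sums. Actc1 made up 49.9% ± 0.550 of the sum in WT and 49.7% ± 1.62 in Mettl3 KO hearts (SD, n = 4, exact permutation p = 0.743). The reads of Actc1 hardly differed between libraries (given with the factors), and how far this limits the shares and ratios was not tested. The share of Acta1 was 10.1% ± 1.98 against 11.4% ± 1.90 (SD, n = 4, exact permutation p = 0.343), a difference of 1.28 points that was 0.480 without WT replicate 3 and 2.23 without Mettl3 KO replicate 2. That of Acta2 was 6.78% ± 1.73 against 6.95% ± 1.41 (exact permutation p = 0.886).

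The share of Actb was the sole one that did not overlap between the genotypes. It was 29.6%, 29.4%, 29.7% and 29.4% in the WT libraries and 27.3%, 29.2%, 27.2% and 28.6% in the Mettl3 KO libraries. Each WT share was above each Mettl3 KO share, and replicate 2 of the Mettl3 KO hearts came within the distance that parts the WT libraries. The means were 29.5% ± 0.157 and 28.1% ± 0.970 (SD, n = 4), a difference of -1.43 percentage points with the smallest p the design allows (exact permutation p = 0.0286) and an adjusted p of 0.314. With 11 quantities adjusted together, a single one at the smallest p cannot pass the correction whatever its size. A share also depends on the other genes of the sum, and the normalized read count of Actb itself averaged 726 in Mettl3 KO and 710 in WT hearts. The estimated reads behind that count went the other way, at 715 in Mettl3 KO and 729 in WT hearts on average. Divided by exonic length before the sum was taken, the Actb share differed by -1.12 points and overlapped between the groups (exact permutation p = 0.0571). Divided by the number of 72-base windows found in 1 gene, it differed by -1.30 points (exact permutation p = 0.0286). The share of Actg1 was 3.63% ± 0.146 in WT and 3.90% ± 0.357 in Mettl3 KO hearts (SD, n = 4, exact permutation p = 0.257). The difference of 0.265 points became 0.160 when Mettl3 KO replicate 1 was left out and 0.422 when Mettl3 KO replicate 4 was (exact permutation p = 0.0286, adjusted p = 0.105).

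Ratios between paralogues did not pass the test either. Acta1 relative to Actc1, the balance of the sarcomeric isoforms, was 0.203 ± 0.0409 in WT and 0.230 ± 0.0417 in Mettl3 KO hearts (SD, n = 4, exact permutation p = 0.371), and the difference was 0.0114 to 0.0475 with a library left out. How far the level reads of Actc1 limit this ratio was not tested. Actb relative to Actg1 was 8.13 ± 0.345 against 7.25 ± 0.790 (SD, n = 4, exact permutation p = 0.0857, adjusted p = 0.314). Cytoplasmic relative to sarcomeric actin was 0.552 ± 0.0186 against 0.524 ± 0.0300 (SD, n = 4, exact permutation p = 0.171). Its difference of -0.0279 became -0.0181 without Mettl3 KO replicate 1 and -0.0411 without Mettl3 KO replicate 2 (exact permutation p = 0.0571, adjusted p = 0.262).

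**Figure D2:**
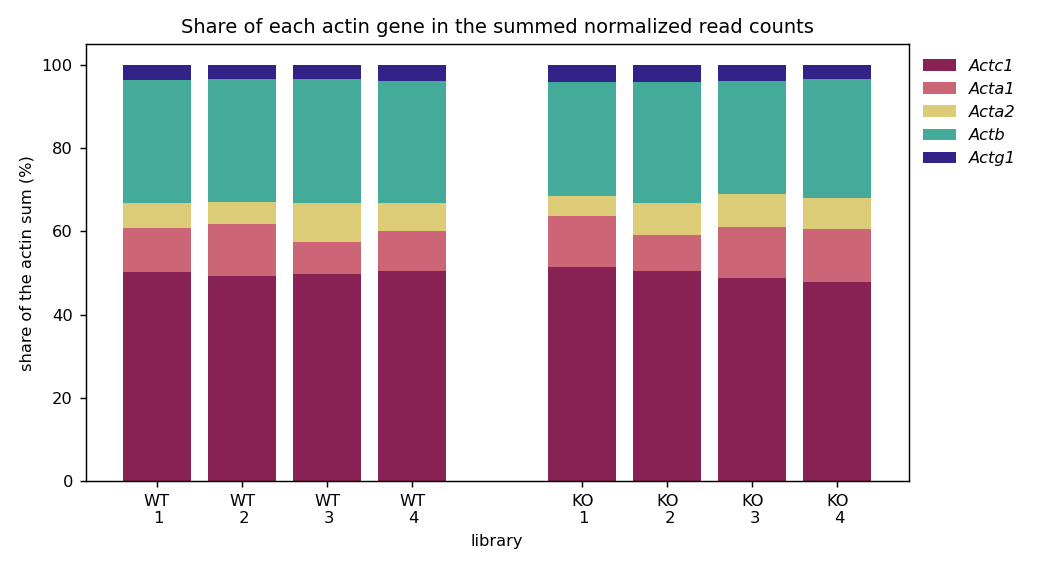
Share of each actin gene in the summed normalized read counts of the 5 genes, in percent, for each library. Actc1 takes 47.9% to 51.5% of the sum in every library and Actb 27.2% to 29.7%, while the bands of Acta1 and Acta2 change most from library to library.

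The order of the actin genes by level was taken per length. Per kb of exon, the normalized read count of Actc1 was 743 ± 34.6 in WT and 794 ± 55.3 in Mettl3 KO hearts (SD, n = 4). Actb followed with 265 and 271, Acta1 with 159 and 193, Acta2 with 74.2 and 81.6 and Actg1 with 32.9 and 38.0 on the same scale. This order held in each of the 8 libraries, and the ranges of neighbours did not overlap. The last place of Actg1 depends on which bases can be counted. The authors removed reads that align to several places, and 97.6% of the 72-base windows in the Actg1 coding sequence occur in transcripts of other genes as well, mostly pseudogenes such as Gm12715 and Gm8399. Outside the coding sequence 0.363% do. For Actb the share over the whole transcript was 3.08%, for Acta1 0.655%, and for Actc1 and Acta2 it was 0. Counted per kb of windows found in 1 gene, Actg1 was at 103 ± 7.60 in WT and 119 ± 14.4 in Mettl3 KO hearts (SD, n = 4), and Acta2 was at 83.0 ± 20.3 and 91.3 ± 18.1. On that scale Actg1 was above Acta2 in 7 of 8 libraries and the ranges overlapped, so their order is not settled by these data. Of the 1881 windows of the Actg1 transcript, 849 are found in 1 gene, so its level rests on fewer bases than those of the other isoforms and is uncertain.

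Each deposited value is a number of reads multiplied by a factor of its library and rounded, and these factors lay between 0.927 and 1.11. The reads of Actc1, recovered with the factors, were 1243, 1254, 1215 and 1223 across the WT libraries and 1246, 1272, 1269 and 1262 across those of Mettl3 KO hearts. These 8 numbers hardly differ, although the normalized values of the same libraries do. Their coefficient of variation was 1.66%, where counting error alone gives 2.83%, and their variance was 0.342 of their mean. The normalized values had a coefficient of variation of 6.61% and followed the factor with a Pearson r of 0.967 over the 8 libraries. The log2 ratio of mean reads, Mettl3 KO over WT, was 0.03 for Actc1, and the mean log2 factor differed between the genotypes by 0.06. Actg1 behaved likewise, with a variance of 0.472 of its mean and an r of 0.891 with the factor. The values of Actb also followed the factor, with an r of 0.856. Its reads averaged 729 in WT and 715 in Mettl3 KO libraries, a log2 ratio of -0.03, where its values gave 0.03.

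Actc1 stood near the top of the table in reads per exonic base. Its 0.771 was rank 3 of 9297 genes with a mean of at least 50 reads, after Gm17428 and Myh6 and before Pln and Malat1. Removal of duplicates from single-end reads leaves at most 1 read for each start position and strand, which sets an upper limit on reads per base. Among the 20 genes with at least 0.5 reads per base the median variance over mean was 1.03, 45.0% were under 1, and the median r of their values with the factor was 0.801. Among the 6150 genes under 0.05 reads per base these were 1.98, 15.4% and -0.0449. Between these bounds, the 2900 genes with 0.05 to 0.2 had 2.78, 11.3% and 0.183. The 227 genes with 0.2 to 0.5 had 2.82, 11.9% and 0.560, so the first 2 measures did not move in a single direction. The part of this limit in the values of Actc1 was not tested. Actb, at 0.270 reads per base and rank 125, had a variance of 1.22 times its mean and an r of 0.856 with the factor. Acta1 (0.176 reads per base, rank 352) and Acta2 (0.0786, rank 1595) had a variance of 10.5 and 8.36 times the mean, beside a median of 2.78 among the 2900 genes with 0.05 to 0.2 reads per base. Actg1 was at rank 4724 with 0.0355 reads per exonic base, or 0.111 per window found in 1 gene, where Actc1 had 0.890 and Acta2 0.0878.

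**Figure D3:**
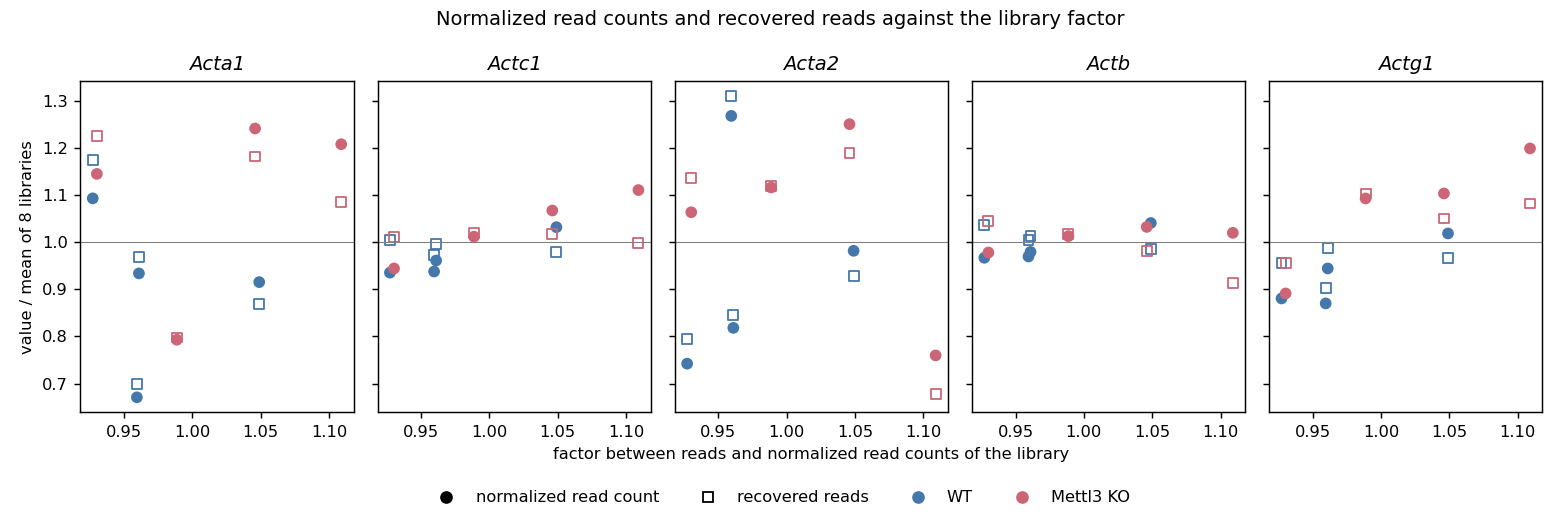
Normalized read counts (filled circles) and recovered reads (open squares) of each actin gene, each divided by its mean over the 8 libraries, against the factor of the library. For Actc1 the squares stay level while the circles rise with the factor (r = 0.967), and for Acta1 and Acta2 both scatter widely.

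**Figure D4:**
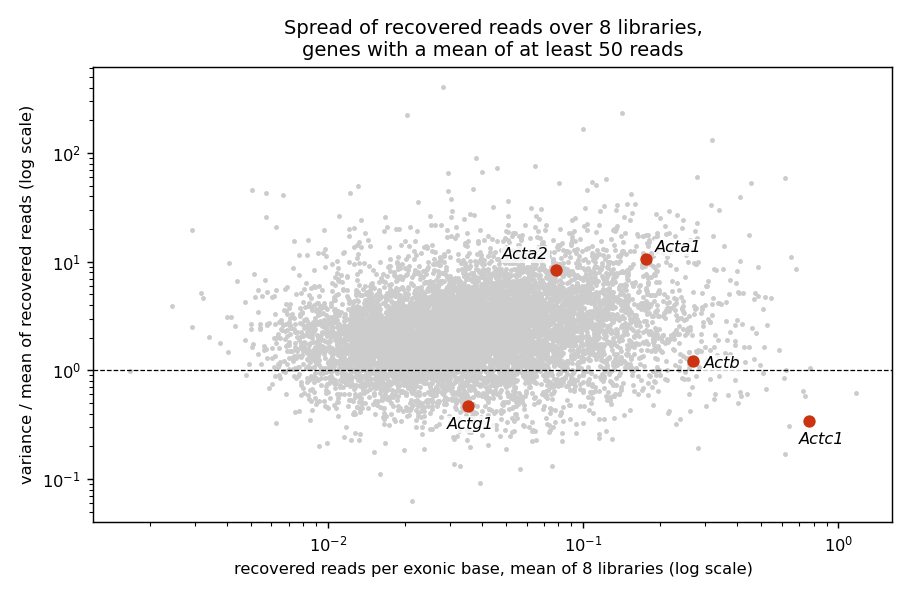
Variance over mean of recovered reads in the 8 libraries against mean recovered reads per exonic base, both on log axes, for 9297 genes (grey) and the 5 actin genes (red). The dashed line marks counting error alone. Actc1 lies at the right edge below the line, and Acta1 and Acta2 lie near 10 on the vertical axis.

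The genes whose pattern over the 8 libraries was most like that of an actin gene were read out by Pearson r of log2 values among 9312 genes with a mean of at least 50, as a description. Nearest to Actc1 were Pln (0.994), the phospholamban gene, Mb (0.981), the myoglobin gene, and Myh6 (0.975), the α-myosin heavy chain gene. Myh6, Pln and Mb were at ranks 2, 4 and 10 in reads per base. Actg1 was most like Rn7sk (0.972), Bod1 (0.969) and Actc1 itself (0.964). Actb was most like Pms1 (0.954), Acadm (0.954) and Slc25a4 (0.938). Acta2 was nearest to Map1lc3b (0.976), Pkp4 (0.961) and Rhbdf1 (0.961), and Acta1 to Gpr153 (0.960), Wipi2 (0.940) and Get1 (0.920). With this many genes and 8 libraries, high values arise readily, and all genes of a library share its factor.

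Genes that handle actin were then examined in 7 lists with 83 members, 81 of them tested. Of these 10 rose (12.3%) and 0 fell, where 4.72% of all genes rose and 3.19% fell. In the alternative fit of genes with a mean of at least 10, 7.31% rose and 4.92% fell, or 12.2% in all. The lists were chosen with earlier results of these data known, so these shares are a description only. The median log2 fold change over the 81 was 0.03 beside -0.01 over all genes. In 16 of the 81 (19.8%) the WT and Mettl3 KO values lay fully apart (13 above WT, 3 below), beside 11.5% of all genes. Apart from the genes named below, none of the 81 passed.

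On the thin filament, 2 of 13 genes rose and 0 fell, with a median of 0.09. They were the leiomodins, which nucleate and lengthen actin filaments at their pointed ends in muscle. Lmod3 held 392, 427, 403 and 428 across the WT libraries and 492, 477, 529 and 501 across those of Mettl3 KO hearts, without overlap, and the change on the log2 scale was 0.28 with an SE of 0.05 (adjusted p = 0.00173 by limma). Lmod2 rose from 927 ± 49.5 to 1063 ± 54.7 (mean ± SD, n = 4, log2 fold change 0.20, limma adjusted p = 0.0109), a call lost without WT replicate 1 or Mettl3 KO replicate 3. The troponin genes Tnnt2, Tnni3 and Tnnc1 had 0.09, 0.02 and 0.07, the tropomyosin gene Tpm1 had 0.09 and the capping gene Tmod1 0.07, and these 5 did not pass.

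Among genes that bind actin monomers or turn filaments over, 2 of 13 rose and 0 fell, with a median of 0.02. Pfn2, a profilin that feeds monomers to growing ends, had 134, 146, 132 and 134 across the WT libraries and 177, 180, 151 and 156 across those of Mettl3 KO hearts (log2 fold change 0.28, limma adjusted p = 0.0384). It passed in 10 of 20 alternatives and was lost without any 1 of 6 libraries (adjusted p up to 0.155 over the alternatives). Gsn, the gelsolin gene, whose product severs and caps filaments, went from 1190 ± 48.5 to 1326 ± 34.5 (SD, n = 4, log2 fold change 0.16, limma adjusted p = 0.0173), a call lost without WT replicate 2 or 4 or Mettl3 KO replicate 2 or 3. The cofilin of muscle, Cfl2, had 0.17 and missed the threshold (limma adjusted p = 0.0529), although its groups did not overlap. Pfn1 and Cfl1, the common isoforms, had -0.01 and -0.03.

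Among nucleation genes 1 of 13 rose and 0 fell, with a median of 0.02. This was Arpc2, a subunit of the Arp2/3 complex that starts branched filaments, from 387, 381, 369 and 395 across the WT libraries to 440, 420, 427 and 436 across those of Mettl3 KO hearts (log2 fold change 0.17, limma adjusted p = 0.0453). It passed in 4 of 20 alternatives only. The other 7 listed subunits of the complex had -0.18 (Arpc1a) to 0.15 (Arpc5) and did not pass.

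Of 15 genes that crosslink, cap or anchor filaments, 2 rose and 0 fell, with a median of 0.00. Flnc, the filamin of muscle, held 1562, 1623, 1753 and 1588 across the WT libraries and 1990, 1815, 1979 and 1803 across those of Mettl3 KO hearts, and the change on the log2 scale was 0.22 with an SE of 0.04 (adjusted p = 0.00235 by limma), and it passed in all 20 alternatives. Flna, a filamin of other cells, had -0.03 and did not pass. Pdlim3, which binds α-actinin at the Z disc, had 97, 96, 102 and 97 across the WT libraries and 113, 155, 197 and 185 across those of Mettl3 KO hearts. Every Mettl3 KO value was above every WT value, and Mettl3 KO replicate 1 stood closest to WT (log2 fold change 0.69, SE 0.12, adjusted p = 0.000796 by limma). Of 6 atrial markers 5 rose, and the atrial myosin light chain gene Myl7 was at 26, 21, 0 and 23 across the WT libraries and 23, 65, 90 and 119 across those of Mettl3 KO hearts. The sum of that list was 2254 to 2451 in WT and 2763 to 3397 in Mettl3 KO libraries. Most of it came from Pam, at 1463 to 1539 in WT and 1777 to 1895 in Mettl3 KO libraries, and Kcnj3 had a log2 fold change of -0.14 (adjusted p = 0.290 by limma). In Mettl3 KO replicate 1, Pam and Nppa stood above all WT values while Myl7 and Sln (10 there, 0 to 12 in WT) lay among them. Bmp10 was at 0 in all WT libraries and in Mettl3 KO replicate 1. The index of atrial genes is the mean log2(value + 1) of these 6 markers in a library, not their sum. As 5 of the 6 rose in Mettl3 KO hearts, the index is in part a measure of genotype. A call lost with it as a covariate therefore cannot be assigned to atrial tissue or to genotype. With this covariate Pdlim3 had a log2 fold change of 0.27 (limma adjusted p = 0.436). The covariate left Flnc and Abra called and ended the calls of the other 8 listed genes, with wider errors. Lmod2 was then at 0.24 (adjusted p = 0.0681), Lmod3 at 0.24 (0.116), Pfn2 at 0.35 (0.155) and Gsn at 0.13 (0.302). Over all alternatives, the covariate included, Arpc2 was at 0.15 to 0.18, Actr1a at 0.19 to 0.23 and Naa80 at 0.64 to 0.90. With the covariate the estimate was 0.15 for Acta1, 0.04 for Acta2, 0.18 for Actc1, 0.04 for Actb and 0.34 for Actg1, none of them called (adjusted p 0.169 to 0.958).

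Among SRF and its cofactors 1 of 9 rose and 0 fell, with a median of 0.05. Abra, also named STARS, an actin-binding activator of SRF signalling in striated muscle, had 173, 216, 234 and 176 across the WT libraries and 299, 347, 315 and 323 across those of Mettl3 KO hearts. The groups were well apart, and the change on the log2 scale was 0.69 with an SE of 0.09 (adjusted p = 1.42e-05 by limma), and the call held in all 20 alternatives. Srf itself went from 197 ± 8.42 to 220 ± 7.90 (SD, n = 4, log2 fold change 0.15) without overlap but did not pass (limma adjusted p = 0.185). Its cofactor genes Myocd, Mrtfa and Mrtfb had 0.05, 0.00 and 0.04. Acta1, Actc1 and Actg1, whose promoters hold the CArG boxes printed above, and Acta2, whose window holds none of the strict form, were all without a call.

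Of 10 genes for folding and maturation of actin, 1 rose and 0 fell, with a median of 0.00. Naa80, the enzyme that acetylates the N-terminus of actin, was low, at 14, 16, 24 and 20 across the WT libraries and 29, 30, 33 and 34 across those of Mettl3 KO hearts (log2 fold change 0.76, SE 0.20, adjusted p = 0.0202 by limma), a call lost without WT replicate 1 or 2 or Mettl3 KO replicate 3 or 4. It overlaps Hyal1 and Hyal3 on the same strand, and reads over several genes were left out by the authors. The 8 listed subunits of the chaperonin that folds actin, from Tcp1 to Cct8, had log2 fold changes of -0.15 to 0.06, and Setd3, the actin histidine methyltransferase, had 0.07. Of 8 other actin and actin-related genes 1 rose, Actr1a, the actin-like gene of dynactin (234 to 256 in WT and 275 to 301 in Mettl3 KO libraries, log2 fold change 0.21, limma adjusted p = 0.0367), which passed in 10 of 20 alternatives.

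**Figure D5:**
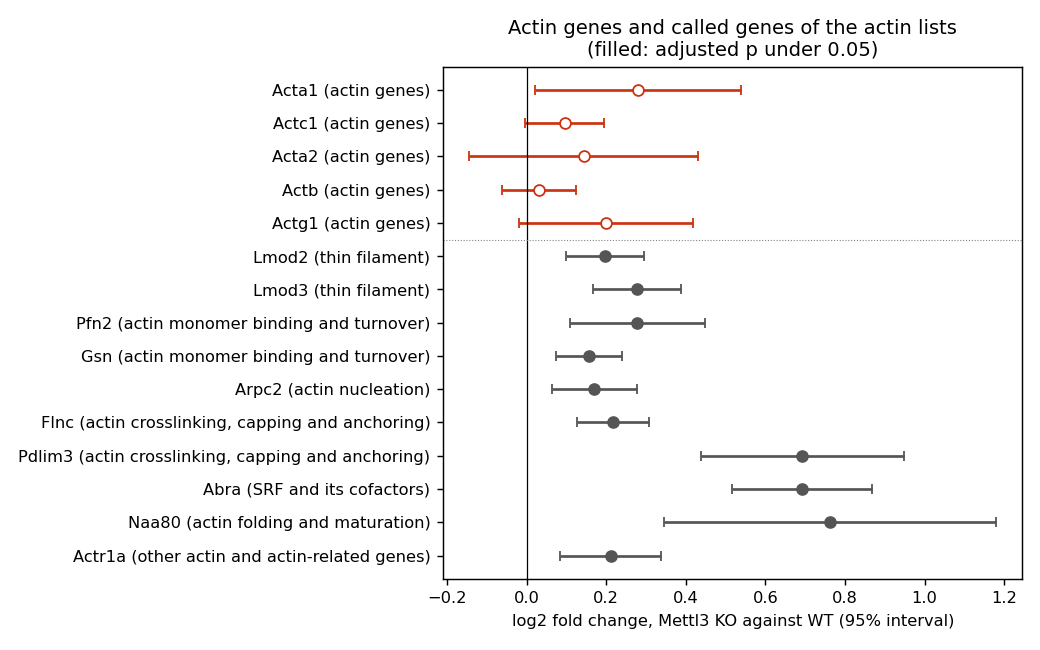
Log2 fold change of Mettl3 KO against WT with its 95% interval for the 5 actin genes (red, open as none had an adjusted p under 0.05) and the 10 called genes of the actin lists (grey, filled). The called genes were picked by their adjusted p, and the largest values are those of Naa80, Pdlim3 and Abra.

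Markers of other cell types of the heart were read out beside the cytoplasmic actins. Of 7 fibroblast markers 6 rose, with a median log2 fold change of 0.38, and their sum was 3311 to 3719 in a WT library and 4162 to 4828 in a Mettl3 KO library. Of 6 endothelial markers 3 fell, Cdh5, Kdr and Tie1, with a median of -0.16 and sums of 3956 to 4182 in WT and 3451 to 3781 in Mettl3 KO libraries. Of 5 macrophage markers 0 passed. Actb and Actg1 are expressed by all of these cells, and how far their parts offset each other was not tested.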

How the data were processed

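Stranded total RNA libraries of mouse hearts, 72-base single-end reads, were processed by the authors. Per the study's methods and the submitters' processing notes, they trimmed reads with Trimmomatic 0.39, aligned them with STAR 2.7.11a (mm39, annotation of Ensembl release 109) and removed duplicates (Picard 3.1.1) and multi-mapping, ribosomal and mitochondrial reads. Exonic reads were summed per gene and strand by featureCounts 2.0.4, and the authors normalized them with DESeq2 1.36.0. What the authors deposited is a score, a normalized count rounded to a whole number, and such values are called normalized read counts here.

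Genes with a mean of at least 1 entered a limma 3.58.1 fit (R 4.3.3) of log2(value + 1) on genotype alone, with variance following a trend in the mean, over all 8 libraries, two-sided, with Benjamini-Hochberg adjustment over all genes tested. A fold change on this scale understates that of low genes. Shares and ratios were tested by exact permutation. The factor of each library was estimated by maximum likelihood from which low values are skipped or crowded. Lengths, 72-base windows and coding sequences came from GENCODE vM21 of an earlier build, matched by gene identifier for 95.5% of genes, and windows were compared with all its transcripts. The fit, the factor and the permutation test were tested on simulated data. Named genes were the members, Mettl3, genes of the lists, the 3 genes most like each member and the 5 with most reads per base. The members and lists were chosen with earlier results of these data known. The values of 1 listed gene are not reported here, though it stays in the counts of its list. Actmap was not matched by symbol and Actbl2 was below the filter. Alternatives were other scalings, limma voom, pseudocounts, filters, the replicate block, an atrial index, other lengths, log2 values, Actg2 in the sum and each library left out. Voom on recovered reads and values per unshared window were chosen after seeing the data. The depth limits precision to counting error, with a floor of 3 reads for a count of 0.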

Additional observations from a re-analysis of the deposited data

Results flagged for a closer look

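In 36 groups of 4 values (5 genes, 11 shares, ratios and sums and the library totals, each in both genotypes) 4 had 1 library far from the other 3, and chance gives about 1.8. Actb in WT replicate 4 was at 747 beside 694 to 703, a gap of 0.83 of the range, small in size because the WT values lie close. The Acta1 share in Mettl3 KO replicate 2 was 8.58% beside 12.2% to 12.6%, a gap of 0.888 of the range. The Acta2 share in Mettl3 KO replicate 1 was 4.85% beside 7.43% to 7.86%, a gap of 0.854 of the range, and its ratio to Actc1 was 0.0941 beside 0.152 to 0.161, a gap of 0.859. In the same library Myh11 (262 beside 307 to 335) and Tagln (37 beside 52 to 59) were the lowest of the 4 Mettl3 KO libraries. Of the same list of smooth muscle and pericyte markers, Cnn1, Smtn, Mylk, Myl9 and Kcnj8 were lowest there as well. Rgs5 (1412 beside 1330 to 1525) and Pdgfrb (363 beside 361 to 378) were not. The part of these cells in the value of Acta2 was not tested.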

How the results depend on the processing

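None of the 5 actin genes changed the sign of its log2 fold change in any of 20 alternatives. With each library left out in turn, Acta1 ranged from 0.14 to 0.43 and the number of actin genes called was 0 to 1, the 1 being Acta1 without Mettl3 KO replicate 2. The number of genes called was 1607, 857 with an atrial index as covariate and 1019 to 1596 with a library left out, lowest without Mettl3 KO replicate 3. With a library left out, the difference in share, Mettl3 KO minus WT, was -0.894 to 0.304 percentage points for Actc1 and -0.304 to 0.992 for Acta2. That of the Acta2 to Actc1 ratio was -0.00417 to 0.0215 and that of Acta2 to smooth muscle genes -0.0447 to 0.0102. These changed sign and never passed. Replicate numbers do not pair the samples (r of same-numbered libraries -0.105 to 0.112), and a replicate block called 1346 genes and 0 actin genes. Of the listed genes, Flnc and Abra passed in 20 of 20 alternatives, Lmod3 and Pdlim3 in 19, Lmod2 in 17, Gsn and Naa80 in 15, Pfn2 and Actr1a in 10 and Arpc2 in 4. Depth limits Actg1 most, at 85 to 104 reads per library.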

Other observations

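The remaining actin genes of the table were hardly expressed. Actg2, the enteric smooth muscle actin, held 1, 5, 2 and 0 across the WT libraries and 6, 4, 2 and 5 across those of Mettl3 KO hearts, at or near the floor of 3 reads, and did not pass. Pseudogenes that share 72-base windows with Actg1 and are listed in the table, Gm6375, Gm16385 and Gm12003, were at 0 to 4 in each library.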
